A study of Mus musculus with 10 samples.

Results

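The genes described here are 6 innate immune genes, C3, Cfb, Cfi, Fcna, Lcn2 and Lbp, found by name among the 12160 genes of the expression table; all 6 were listed and all 10 libraries were used. C3, Cfb and Cfi belong to complement, Fcna encodes a ficolin, and Lcn2 and Lbp encode acute-phase proteins. RNA was sequenced from the injured pancreas of wild type male mice, given as CD1 in the sorting protocol and as a mixed strain in the sample records. Pancreatitis was induced in every mouse with 4 cycles of caerulein at 250 µg/kg, a cholecystokinin analog that overstimulates and damages acinar cells, followed by up to a couple of days of recovery. Epithelial cells negative for Cd45 and positive for EpCAM were sorted by Siglec f, and 5 libraries of Siglec f+ tuft cells were compared with 5 libraries of Siglec f-neg non-tuft epithelial cells, each made by Smart-Seq2 from 100 cells. The study states that each replicate was 1 mouse and that both gates were sorted from the same 5 mice. The sources do not say which tuft and non-tuft libraries share a mouse, so the p-values below treat all 10 libraries as independent. No library came from an uninjured pancreas, so every value below describes injured tissue. The non-tuft gate is a mixture of whatever epithelium is left once Siglec f+ cells are removed.

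Complement is a set of plasma and tissue proteins that tag and lyse microbes and damaged cells. The classical pathway starts from C1q, the lectin pathway from collectins and ficolins that bind sugars, and the alternative pathway from C3 that turns over on its own; all of them meet at C3, whose larger fragment C3b binds factor B to form the convertase that cleaves more C3. Factor I, with the help of cofactors, destroys C3b and stops the loop. Acute-phase proteins are secreted in larger amounts during inflammation, mainly by the liver but also by injured epithelium, including acinar cells of the inflamed pancreas.

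Each value is a log2(RPKM + 1), an expression level per transcript length and library size that was quantile normalized between libraries. A gene was taken to be at the floor of a library when it had that library's lowest value, 0 in every library but non-tuft library 2, where the floor was 0.17. Genes were called different at an adjusted p under 0.05 (limma, Benjamini-Hochberg over all genes) and a fold change over 4, and every difference is tuft minus non-tuft on the log2 scale. All 6 genes passed, with 2 higher (Cfb, Fcna) and 4 lower (C3, Cfi, Lcn2, Lbp) in tuft cells, where 8.31% of all listed genes passed in either direction, 4.32% as higher and 3.99% as lower. The 6 genes and the gene lists below were chosen with earlier results of these data known, so such shares do not test the gene classes. The groups did not overlap for 5 of the 6, against 11.4% of all listed genes, and overlapped for Cfb. Values were compared as listed. The 11.4% can thus include genes at 0 in all tuft libraries and at the 0.17 floor of non-tuft library 2. Fewer cells of a type and less RNA per cell cannot be told apart in these libraries of pooled cells.

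In non-tuft libraries the order of the levels, by their medians on the log2(RPKM + 1) scale, was C3 at 8.47, Lcn2 at 7.34, Cfi at 6.04, Lbp at 2.49, Cfb at 1.06 and Fcna at the floor. The ranges of neighbors in that order overlapped except between Cfi and Lbp. In tuft libraries the order was Fcna at 7.55, Cfb at 5.95, C3 at 2.76, Cfi at 2.38, Lcn2 at 1.45 and Lbp at the floor. Only Fcna and Cfb were neighbors whose ranges did not overlap there. The 2 genes at the top of the tuft order were thus the 2 at the bottom of the non-tuft order.

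**Figure D1:**
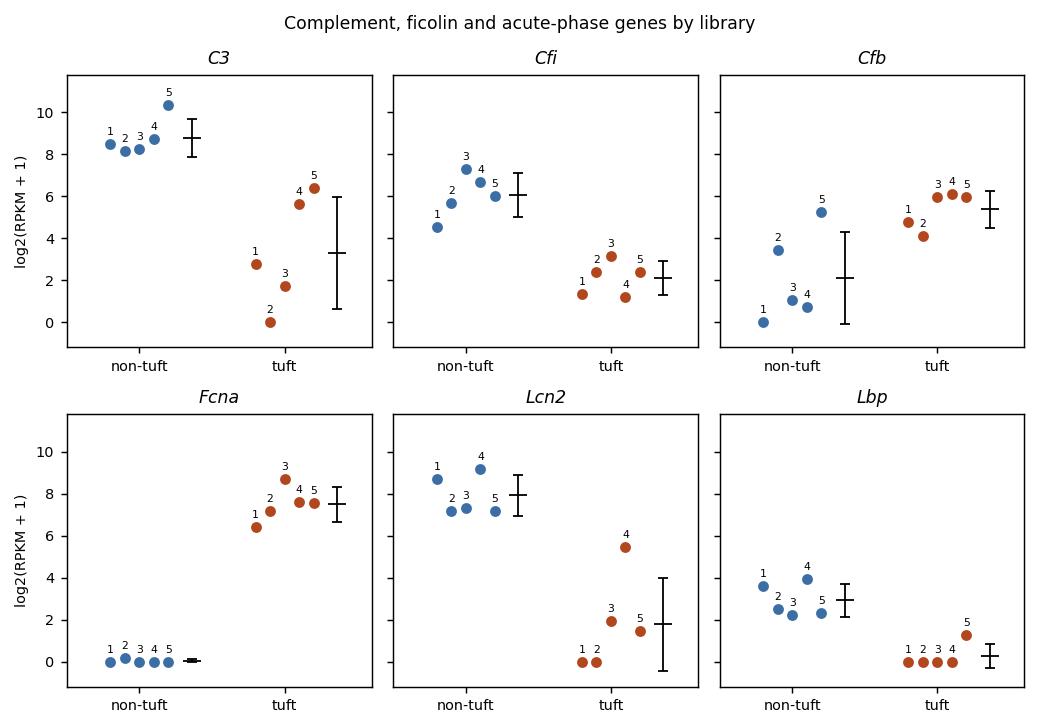
Level of C3, Cfi, Cfb, Fcna, Lcn2 and Lbp, as log2(RPKM + 1), in each of 5 non-tuft and 5 tuft libraries (numbered points), with the group mean ± SD as bars. C3, Cfi, Lcn2 and Lbp lie higher in all non-tuft libraries, Fcna is at the floor in all 5 of them, and only for Cfb do the groups overlap, through non-tuft library 5.

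The sequence just upstream of the transcript start was read for the genes that the promoter table holds, which are 3 of the 6: C3 and Lcn2, both high in non-tuft cells, and Fcna, above the floor in tuft libraries alone. Each is 250 bases, 5′ to 3′ on the gene's strand and ending at the annotated start (RefSeq, GRCm38.p6), and all lie on the minus strand. Capitals mark a match to the C/EBP motif TTGCNNAA, searched on both strands because C/EBP factors drive many acute-phase genes. The C3 window is chr17:57228137-57228386, the Lcn2 window chr2:32387740-32387989 and the Fcna window chr2:25627975-25628224.
C3: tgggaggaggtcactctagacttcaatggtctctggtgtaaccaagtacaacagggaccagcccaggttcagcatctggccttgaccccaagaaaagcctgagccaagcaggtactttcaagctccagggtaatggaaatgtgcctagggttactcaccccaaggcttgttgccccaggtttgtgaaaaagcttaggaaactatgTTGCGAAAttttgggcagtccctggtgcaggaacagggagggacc
Lcn2: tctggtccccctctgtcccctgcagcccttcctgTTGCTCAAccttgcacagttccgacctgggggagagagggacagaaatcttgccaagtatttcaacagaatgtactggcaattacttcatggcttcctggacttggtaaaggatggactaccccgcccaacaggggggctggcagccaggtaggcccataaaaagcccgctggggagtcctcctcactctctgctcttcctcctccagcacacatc
Fcna: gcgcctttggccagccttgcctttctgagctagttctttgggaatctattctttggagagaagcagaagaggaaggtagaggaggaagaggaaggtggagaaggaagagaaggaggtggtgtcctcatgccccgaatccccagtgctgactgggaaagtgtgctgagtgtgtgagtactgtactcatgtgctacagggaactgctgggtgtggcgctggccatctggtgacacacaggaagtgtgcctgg

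The C/EBP match began 45 bases before the start of C3 and 216 bases before that of Lcn2, and 9.56% of all 32851 windows of this length held one. The other motifs searched on both strands were a STAT site (TTCNNNGAA, in 7.02% of windows), an IRF site (GAAANNGAA, 7.13%), the octamer ATGCAAAT that POU factors bind (1.6%) and the NF-kB consensus (5.00%). None of these was matched in the 3 windows, and the Fcna window matched no motif at all. A match is a description of the letters only.

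C3 (ENSMUSG00000024164.8; mm9 chromosome 17, 57343397 to 57367559, minus strand) encodes the protein on which all complement pathways converge. Its levels in non-tuft libraries 1 to 5 were 8.47, 8.14, 8.27, 8.75 and 10.36, and in tuft libraries 1 to 5 they were 2.76, 0, 1.72, 5.63 and 6.39. Every non-tuft library was above every tuft library by at least 1.76, and tuft libraries 4 and 5 were far above the other tuft libraries. C3 was one of the most abundant messages of the non-tuft cells, ranking between 42 and 203 of all listed genes with a median of 354 RPKM, against 5.79 RPKM in tuft cells. The mean fell from 8.80 ± 0.90 (SD, n = 5) to 3.30 ± 2.68 (SD, n = 5), a log2 difference of -5.50 (SE 1.04) or a 45.1-fold lower level in tuft cells (limma adjusted p = 0.00384; two-sided exact permutation p = 0.00794, the smallest that 5 against 5 libraries allow). It was called with any one of the 10 libraries left out. With tuft library 2 at the floor, the fold depends on the 1 added before the log.

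Cfi (ENSMUSG00000058952.7; mm9 chromosome 3, 129539655 to 129578246, plus strand) encodes complement factor I, the protease that cuts C3b. It was at 4.55, 5.66, 7.31, 6.69 and 6.04 in non-tuft libraries 1 to 5, and at 1.33, 2.41, 3.14, 1.2 and 2.38 in tuft libraries 1 to 5. The groups were separated by 1.42 and, unlike C3, no tuft library stood out. The mean was 6.05 ± 1.05 in non-tuft and 2.09 ± 0.81 in tuft cells (SD, n = 5 each), a log2 difference of -3.96 (SE 0.56), or a 15.6-fold lower level in tuft cells (limma adjusted p = 6.12e-04; exact permutation p = 0.00794). Leaving out each library in turn moved the difference only between -4.33 and -3.64.

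Cfb (ENSMUSG00000090231.2; mm9 chromosome 17, 34993319 to 34999463, minus strand) encodes factor B, which joins C3b as the catalytic subunit of the alternative pathway convertase. In tuft libraries 1 to 5 it was at 4.77, 4.09, 5.95, 6.09 and 5.97. In non-tuft libraries 1 to 5 it was at 0, 3.46, 1.06, 0.71 and 5.25. All tuft libraries expressed the gene, whereas non-tuft libraries ran from the floor to a level above tuft libraries 1 and 2. The mean rose from 2.09 ± 2.19 in non-tuft to 5.38 ± 0.90 in tuft cells (SD, n = 5 each), a log2 difference of 3.28 (SE 0.89), or 9.72-fold (limma adjusted p = 0.0286; two-sided exact permutation p = 0.0238).

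The call for Cfb was the least firm of the 6. It was lost when non-tuft library 1 (adjusted p = 0.0729), non-tuft library 3 (0.0786), non-tuft library 4 (0.0756), tuft library 3 (0.0784), tuft library 4 (0.0777) or tuft library 5 (0.0769) was left out of the limma fit, and the difference stayed between 2.76 and 4.07 throughout. Without non-tuft library 5 the limma adjusted p was 0.00420. Tuft markers were also found in some non-tuft libraries, and whether they came from tuft cells in that gate or from other epithelium was not tested. The 13 markers, all called higher in tuft cells, reached a median of 0.980%, 5.15%, 0%, 0% and 8.66% of their tuft mean (linear RPKM) in non-tuft libraries 1 to 5. Cfb stood at 0%, 21.5%, 2.34%, 1.36% and 79.6% of its own tuft mean in the same libraries. In non-tuft libraries 3, 4 and 5 its share was above that of every tuft marker, of which the highest in non-tuft library 5 reached 46.3%. Non-tuft library 5 also had the highest sum of fibroblast and endothelial markers, given below. The part of such RNA in its Cfb level was not tested.

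C2, the paralog of factor B in the classical pathway convertase, lies 85 bases from Cfb on the same chromosome. Its levels were 3.53, 3.89, 5.56, 6.55 and 5.33 in tuft libraries 1 to 5, and 0, 0.17, 3.84, 0 and 5.80 in non-tuft libraries 1 to 5. Both genes were highest among non-tuft libraries in library 5, but C2 was at the floor in non-tuft library 2, where Cfb was not. Its log2 difference of 3.01 (SE 1.09) did not pass (limma adjusted p = 0.0984) and passed without non-tuft library 5 (3.97, adjusted p = 0.0154). How reads between such close neighbors were assigned is not given in the sources used here.

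Because Cfb and C3 act as partners, their difference was also taken within each library, on the log2(RPKM + 1) scale. Cfb minus C3 was 2.00, 4.09, 4.23, 0.46 and -0.41 in tuft libraries 1 to 5, and -8.47, -4.68, -7.21, -8.04 and -5.11 in non-tuft libraries 1 to 5. Factor B message therefore exceeded C3 message in 4 of 5 tuft libraries and was below it in all non-tuft libraries. The groups differed by 8.78 (two-sided exact permutation p = 0.00794, 0.0238 adjusted over the 3 such differences tested). This separation already follows from the ranges of Cfb and C3 given above, so the test adds no support beyond them. For Cfi minus C3, the tuft libraries ran from -4.43 to 2.41 and the non-tuft libraries from -4.32 to -0.96, so the values overlapped. The mean was -1.21 ± 3.09 in tuft and -2.75 ± 1.38 in non-tuft cells (SD, n = 5 each), and the group difference of 1.54 did not pass (exact permutation p = 0.341, 0.341 adjusted over 3).

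**Figure D2:**
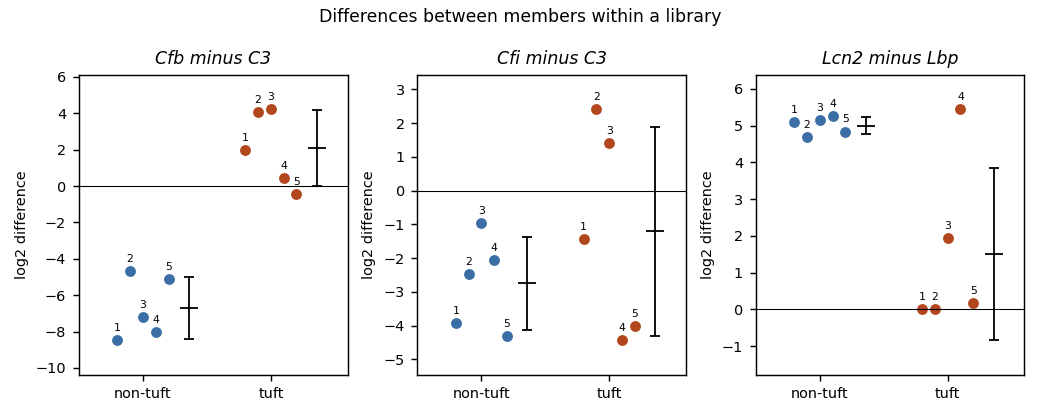
Log2 difference between 2 genes within each library, for Cfb minus C3, Cfi minus C3 and Lcn2 minus Lbp, in 5 non-tuft and 5 tuft libraries (numbered points), with the group mean ± SD as bars. Cfb minus C3 is below -4.6 in each non-tuft library and above -0.5 in each tuft library, whereas the groups overlap for the other two.

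Fcna (ENSMUSG00000026938.9; mm9 chromosome 2, 25480186 to 25483550, minus strand) encodes ficolin A, a secreted lectin that binds acetylated sugars and starts the lectin pathway through the MASP proteases; it is best known from macrophages of liver and spleen. It was at 6.42, 7.16, 8.67, 7.59 and 7.55 in tuft libraries 1 to 5, which corresponds to 84.8 to 408 RPKM. Its listed value in non-tuft cells was the floor in each of the 5 libraries. Fcna thus separated the gates completely, and it ranked between 132 and 709 of all listed genes in tuft libraries. The tuft mean was 7.48 ± 0.82 (SD, n = 5; limma adjusted p = 6.61e-07; exact permutation p = 0.00794). No fold is given, since the non-tuft level was at the floor and the read depth is unknown.

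Of the 13 tuft markers, 8, 10, 4, 0 and 11 were above the floor in non-tuft libraries 1 to 5, where Fcna was not. They differed among themselves: Rgs13, a regulator of G protein signaling, was at 5.55, 5.61 and 7.43 in non-tuft libraries 1, 2 and 5, whereas Siglecf and Chat were above the floor in non-tuft library 2 alone, and Gfi1b and Il25 in non-tuft library 5 alone. Of the macrophage markers, 7 were listed. Their summed level was 5.67 to 43.3 RPKM in tuft and 3.05 to 20.3 RPKM in non-tuft libraries, and only Ptprc, the gene of the Cd45 antigen used to remove leukocytes, was called, at 2.74 to 4.33 in tuft and 0 to 1.93 in non-tuft libraries. The 1 called is 14.3% of those listed, beside 8.31% of all listed genes. Csf1r, the macrophage growth factor receptor, was at 0 in every tuft library but library 3, at 2.69, where Fcna was also highest. Csf1r was also at 1.72 in non-tuft library 2, where Fcna was at the floor. In tuft library 3, Lyz2 (4.92), Cd68 (1.67) and Tyrobp (0.70) were above 0 as well, whereas Mpeg1 and Aif1 were at 0. Fcna alone exceeded the sum of the 7 listed macrophage markers in every tuft library, at 84.8 RPKM against 14.7 RPKM in tuft library 1. Which cells the Fcna RNA came from was not tested.

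The other listed gene of the lectin pathway was Mbl1, mannose binding lectin, which was at the floor in all tuft libraries and at 0 to 3.0 in non-tuft libraries (limma adjusted p = 0.277). Mbl2 and Fcnb, which encode further soluble lectins, and Masp1 and Masp2, the proteases that ficolins activate, were not analysed here. Of the genes of the alternative pathway, Cfp also rose. Cfp encodes properdin, the protein that stabilizes the convertase of C3b and factor B. It was at 3.49, 2.33, 4.73, 2.21 and 4.43 in tuft libraries 1 to 5, and at 0, 1.82, 1.51, 0 and 0.53 in non-tuft libraries 1 to 5. Each tuft library was above each non-tuft library, by a mean of 2.67 on the log2 scale (SE 0.60; limma adjusted p = 0.0104).

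Over all complement lists, 28 genes were described, of which 3 were called higher (Fcna, Cfb, Cfp), 5 were called lower (C3, Cfi, C4b, Cpn1, Cd59a) and 20 did not pass. Thus 28.6% of them were called, beside 8.31% of all listed genes. Their median log2 difference was -0.59, or -0.50 over the 22 genes that were not at the floor throughout a group, beside 0.02 over all listed genes. Fcna, Cfb, C3 and Cfi are 4 of the 8 called genes, so these counts are not independent of them.

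Among classical pathway genes, C4b, the source of the C4b subunit of the classical and lectin convertase, fell. It was at 6.0, 5.25, 5.10, 6.15 and 6.36 in non-tuft libraries 1 to 5, and at 3.69, 2.98, 2.07, 2.83 and 1.87 in tuft libraries 1 to 5, with a log2 difference of -3.08 (SE 0.45; limma adjusted p = 8.05e-04). C4b has a near-identical copy, C4a, listed at 0 in all tuft libraries and at 0 to 2.69 in non-tuft libraries, so reads shared by both leave the split between them uncertain. C1qa, C1qb and C1qc, the subunits of C1q, were above the floor together only in tuft library 3, at 2.81, 2.71 and 2.00. In the other tuft libraries only C1qa was above the floor, at 0.42 in library 5. C1qb was highest in non-tuft library 1, at 3.57, where C1qc was at 0.90. None of these subunits passed. C1ra and C1s1, the C1 proteases, which also have close copies, were highest in non-tuft library 5, at 5.46 and 5.03, and neither passed. Of the terminal pathway, C8g alone was listed, at 0 to 2.65 in tuft and 0 to 0.20 in non-tuft libraries (limma adjusted p = 0.215).

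Of 7 soluble regulators described, 2 were called lower (Cfi, Cpn1) and 5 did not pass. The called share is 28.6%, beside 3.99% of all listed genes called lower. Cpn1, the catalytic subunit of carboxypeptidase N, which inactivates the C3a and C5a peptides, differed by -2.68 (SE 0.67; limma adjusted p = 0.0186) and lost its call without tuft library 4 (0.0517) or 5 (0.0570). Clu, encoding clusterin, an inhibitor of the membrane attack complex and a marker of injured epithelium, was the most abundant complement gene of both gates, at 9.53 to 11.85 in tuft and 10.60 to 12.73 in non-tuft libraries, and did not pass (-1.11, adjusted p = 0.282). Serping1, the C1 inhibitor, ran from 0 to 7.20 in non-tuft and from 0 to 4.93 in tuft libraries, highest in library 5 of each (limma adjusted p = 0.466). C4bp was at 0 to 4.71 in tuft and 0 to 1.26 in non-tuft libraries, Vtn at 0 in all tuft and 0 to 4.91 in non-tuft libraries, and Cfhr2 above the floor in tuft library 4 alone; none passed.

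Membrane regulators protect cells from their own complement. Cd59a, which blocks assembly of the membrane attack complex, was at 4.54, 4.33, 2.33, 4.69 and 4.24 in non-tuft libraries 1 to 5, and at 1.35, 0.92, 2.42, 0.77 and 2.75 in tuft libraries 1 to 5. It fell by 2.38 on the log2 scale (SE 0.56; limma adjusted p = 0.0140), although non-tuft library 3 was below tuft libraries 3 and 5, and it has a close copy, Cd59b, which was at 0 in all tuft libraries. Cd55, which speeds convertase decay, was at 0.53 to 2.80 in tuft and 0 to 3.51 in non-tuft libraries, and Cr1l (Crry), the broad rodent convertase inhibitor, was at 3.96 to 4.99 and 2.80 to 4.10. Neither passed (limma adjusted p = 0.626 and 0.182). Of the receptor list, C1qbp alone was listed, a mitochondrial protein that also binds C1q; it was at 3.88 to 5.06 in tuft and 5.95 to 7.02 in non-tuft libraries, without overlap, and its difference of -1.86 passed the adjusted p (0.00718) but not the fold. Genes of the C3a and C5a receptors were not analysed here.

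**Figure D3:**
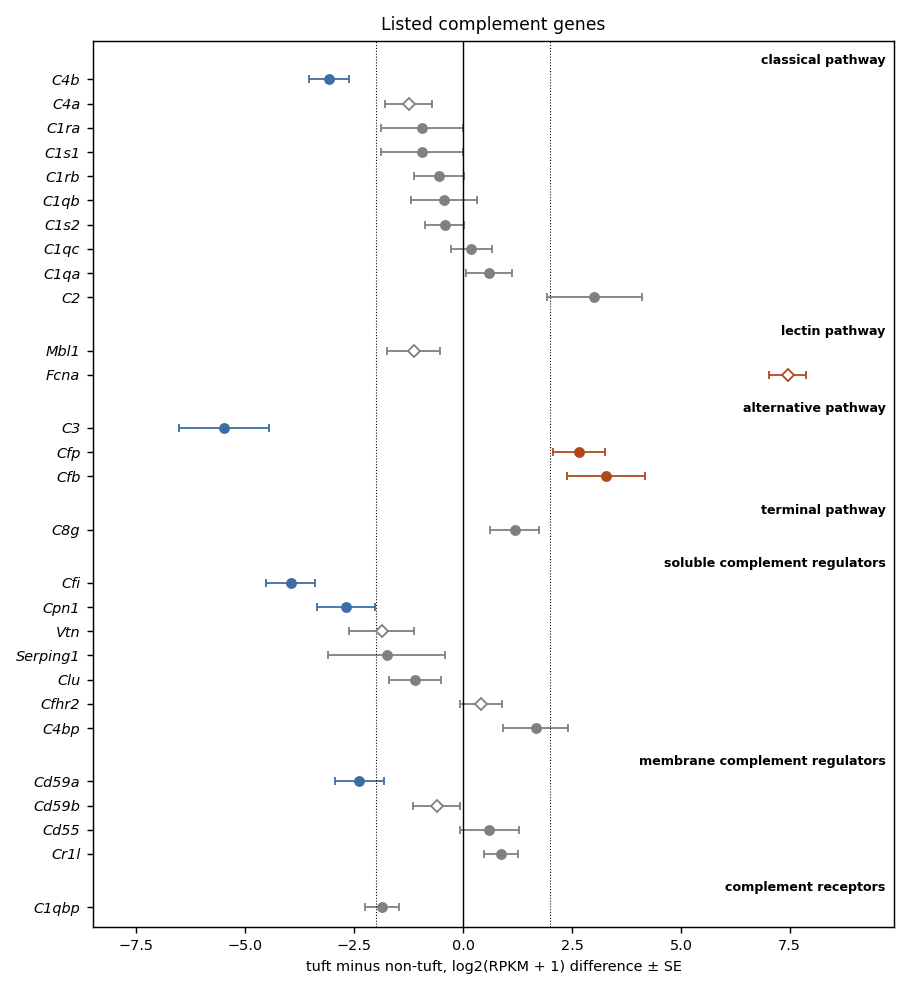
Tuft minus non-tuft difference in log2(RPKM + 1) with its SE for 28 complement genes, grouped by pathway (red, called higher; blue, called lower; gray, not called; dotted lines, 4-fold). Open diamonds mark genes at the floor in all libraries of a group, for which the size depends on the 1 added before the log. Fcna, Cfb and Cfp lie to the right of the upper line, and C3 and Cfi lie farthest to the left.

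Lcn2 (ENSMUSG00000026822.9; mm9 chromosome 2, 32240153 to 32243317, minus strand) encodes lipocalin 2, which withholds iron from bacteria by binding their siderophores and is secreted by many injured epithelia. It was at 8.68, 7.18, 7.34, 9.19 and 7.17 in non-tuft libraries 1 to 5, and at 0, 0, 1.94, 5.45 and 1.45 in tuft libraries 1 to 5. Non-tuft libraries were all high, with a rank between 86 and 416 of all listed genes, whereas tuft libraries spread from the floor, in libraries 1 and 2, to tuft library 4, which still lay 1.72 below the lowest non-tuft library. The mean was 7.91 ± 0.96 in non-tuft and 1.77 ± 2.23 in tuft cells (SD, n = 5 each), a log2 difference of -6.14 (SE 0.91), or a 70.8-fold lower level in tuft cells (limma adjusted p = 8.12e-04; exact permutation p = 0.00794). With tuft libraries 1 and 2 at the floor, that fold depends on the 1 added before the log. On the linear scale, the medians were 160.5 RPKM in non-tuft and 1.73 RPKM in tuft cells.

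Lbp (ENSMUSG00000016024.3; mm9 chromosome 2, 158132229 to 158158588, plus strand) encodes the plasma protein that carries lipopolysaccharide to Cd14 and Tlr4. It was at 3.6, 2.49, 2.20, 3.94 and 2.33 in non-tuft libraries 1 to 5, and at the floor in tuft libraries 1 to 4 with 1.27 in tuft library 5. The levels were thus low in both gates, with a non-tuft median of 4.62 RPKM, and did not overlap. The mean was 2.91 ± 0.80 in non-tuft and 0.25 ± 0.57 in tuft cells (SD, n = 5 each), a log2 difference of -2.66 (SE 0.47; limma adjusted p = 0.00257; exact permutation p = 0.00794). The 6.31-fold change is on the log2(RPKM + 1) scale, which understates the change of so low a gene.

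Within libraries, Lcn2 minus Lbp was nearly constant in non-tuft cells, at 5.08, 4.69, 5.14, 5.26 and 4.84 in libraries 1 to 5, or 5.00 ± 0.23 (SD, n = 5). In tuft libraries 1 to 5 it was 0, 0, 1.94, 5.45 and 0.18, or 1.51 ± 2.35 (SD, n = 5), with both genes at the floor in libraries 1 and 2. The groups differed by -3.49 (two-sided exact permutation p = 0.0476), which did not hold after adjustment over the 3 differences tested (0.0714).

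Of the positive acute-phase genes, those whose proteins increase in inflammation, 15 were listed besides the complement genes; 8 were lower in tuft cells, none was higher and 7 did not pass. This is 53.3% of the list, beside 3.99% of all listed genes called lower, and its median log2 difference was -2.38, or -2.77 over the 12 genes not at the floor throughout a group. Lcn2 and Lbp are among the 8. Cp, encoding the ferroxidase ceruloplasmin, was at 6.78 to 8.40 in non-tuft and 0.63 to 4.34 in tuft libraries (-5.63, SE 0.65; limma adjusted p = 1.26e-04). The metal-binding metallothioneins Mt1 and Mt2 were at 9.51 to 10.39 and 7.70 to 9.45 in non-tuft libraries, and at 4.37 to 7.71 and 0.92 to 6.44 in tuft libraries. Crp, C-reactive protein, differed by -2.88 (limma adjusted p = 0.0158) and Itih4 was listed at 0 in all tuft libraries and at 0.85 to 3.25 in non-tuft libraries.

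Il1rn, the antagonist of the interleukin 1 receptor, was at 6.16 to 7.10 in non-tuft libraries except library 2, where it was at the floor, and in tuft cells it was found in library 4 alone, at 3.88. It was called (-4.44, limma adjusted p = 0.0295) and lost the call when any library but non-tuft 2 or tuft 4 was left out, with adjusted p from 0.0753 to 0.0814. Itih4 passed the adjusted p but not the fold without non-tuft library 4 (-1.89). Hp, haptoglobin, was at 0 to 4.60 in non-tuft and 0 to 0.52 in tuft libraries and did not pass (limma adjusted p = 0.327). Saa3 was not analysed here.

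Negative acute-phase genes, whose proteins decline in inflammation, were lower in tuft cells too. Of 7 listed, 5 were called lower (Serpina6, Fetub, Trf, Ttr, Rbp4) and none higher, which is 71.4% beside 3.99% of all listed genes called lower. Their median log2 difference was -3.0, beside 0.02 over all listed genes. Serpina6, the plasma carrier of corticosteroids, was at 7.42 to 10.64 in non-tuft and 0 to 5.23 in tuft libraries (-7.21, limma adjusted p = 7.49e-04). Alb and Apoa1, the other members listed, did not pass (limma adjusted p = 0.118 and 0.207). Of 4 listed hepatocyte markers, Ttr alone was called, or 25.0% beside 8.31% of all listed genes.

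**Figure D4:**
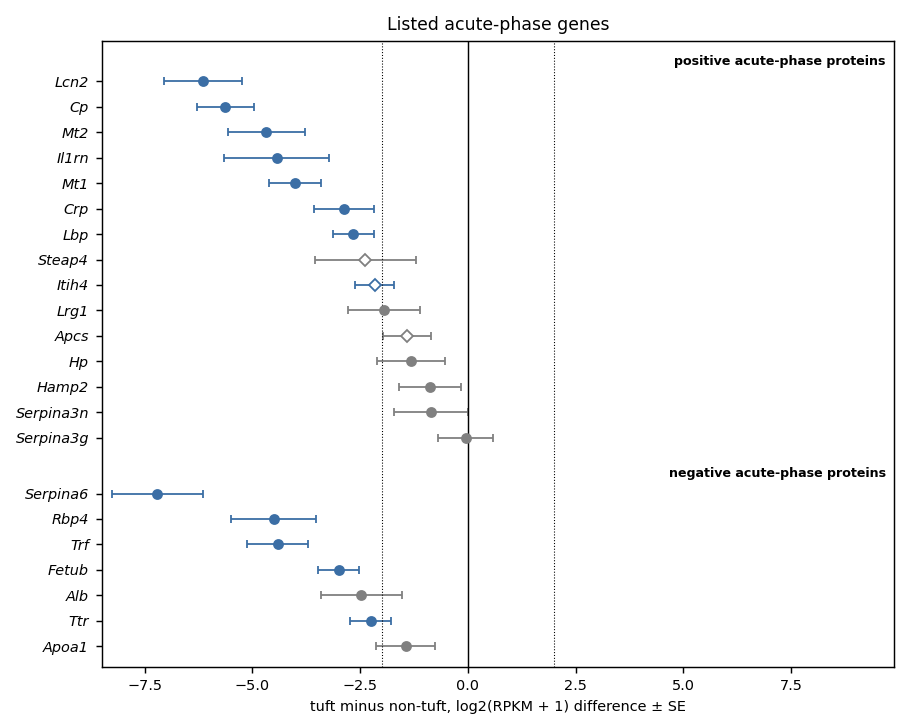
Tuft minus non-tuft difference in log2(RPKM + 1) with its SE for 15 positive and 7 negative acute-phase genes (blue, called lower; gray, not called; dotted lines, 4-fold). Open diamonds mark genes at the floor in all libraries of a group, for which the size depends on the 1 added before the log. Every point lies at or left of 0, and no gene of either class was called higher.

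Of 29 listed receptors and factors that carry the acute-phase signal of interleukin 6, interleukin 1 and NF-kB, 1 was called higher, 2 were called lower and 26 did not pass, with a median log2 difference of -0.47. The 10.3% called is close to the 8.31% of all listed genes. Il6st, the shared gp130 receptor of interleukin 6 cytokines, was at 2.78 to 4.13 in non-tuft and 0 to 2.59 in tuft libraries (-2.44, limma adjusted p = 0.0109). Relb, a subunit of NF-kB, was at 3.56 to 4.81 in non-tuft and 0 to 1.76 in tuft libraries (-3.96, limma adjusted p = 1.17e-04). Il1rap, the accessory chain of the interleukin 1 receptor, rose, from 0.63 to 3.76 in non-tuft to 3.63 to 5.63 in tuft libraries (2.38, limma adjusted p = 0.0168).

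Stat3, the factor downstream of Il6st, was at 3.41 to 4.13 in tuft and 2.83 to 5.65 in non-tuft libraries (limma adjusted p = 0.524). Socs3, its feedback inhibitor, was at 0 to 2.03 and 0 to 3.14. The C/EBP genes Cebpb and Cebpd were at 0.07 to 2.94 and 0.66 to 2.75 in tuft libraries, and at 1.37 to 4.20 and 0 to 2.88 in non-tuft libraries. Nfkbiz, the nuclear cofactor required for Lcn2 induction, was at 1.47 to 4.64 in tuft and 3.59 to 5.04 in non-tuft libraries. None of the last 4 passed, and Il6ra was not analysed here.

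In the lipopolysaccharide recognition list, Lbp was the only 1 of 12 genes called. This is 8.33% of the list, close to the 8.31% of all listed genes. Cd14, to which the Lbp protein hands its ligand, was at 1.24 to 6.06 in tuft and 2.72 to 7.08 in non-tuft libraries (limma adjusted p = 0.223). Tlr4, the signaling receptor, was at 0 in all tuft libraries and above the floor only in non-tuft libraries 3 and 4, at 2.19 and 2.48. Ly96, the Tlr4 co-receptor, was at 3.65 to 5.80 in tuft and 0 to 4.80 in non-tuft libraries (limma adjusted p = 0.162).

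Of 14 listed genes for iron and siderophore handling, the background to Lcn2 function, 2 were called lower (Lcn2, Trf) and 1 higher. The called share is 21.4%, beside 8.31% of all listed genes. Trf, encoding the plasma iron carrier transferrin, was at 4.70 to 6.79 in non-tuft and 0 to 3.83 in tuft libraries (-4.42, limma adjusted p = 0.00137). Fth1, the ferritin heavy chain that stores iron, was at 12.86 to 14.43 in tuft and 10.08 to 11.16 in non-tuft libraries (3.25, limma adjusted p = 3.99e-04). Slc22a17, a receptor for lipocalin 2, was at 0 to 2.13 in tuft and 0.17 to 3.74 in non-tuft libraries, and Tfrc, the transferrin receptor, at 0.96 to 4.33 and 3.10 to 3.95. Neither of these receptors passed.

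The 4 genes lower in tuft cells were set beside acinar markers, since enzyme messages were present in all libraries. All 17 acinar markers were listed and 13 were called lower, or 76.5% beside 3.99% of all listed genes. The acinar markers summed to 128800 to 157900 RPKM in non-tuft libraries. In tuft libraries they summed to 1439 to 109000 RPKM, lowest in tuft library 5 and highest in tuft library 4. As a percent of the non-tuft mean (linear RPKM), the median acinar marker was at 13.02, 10.5, 2.77, 24.1 and 0.553 in tuft libraries 1 to 5. C3 was at 1.08, 0, 0.429, 9.06 and 15.4 percent in the same libraries, below most acinar markers in libraries 1 to 4 and above all 17 in library 5. Lcn2 was at 0, 0, 0.981, 14.8 and 0.600 percent, so that both genes, like the acinar markers, were high in tuft library 4.

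Cfi, at 1.92, 5.45, 9.81, 1.64 and 5.28 percent, was low in tuft library 4 and highest in library 3, and Lbp was above 0 in tuft library 5 alone, at 18.7 percent. Tuft library 5 also held connective tissue messages. The 8 listed fibroblast and endothelial markers summed to 254 RPKM in tuft library 5 and 754 RPKM in non-tuft library 5, to 0 in the other tuft libraries and to at most 23.1 RPKM in the other non-tuft libraries. Those are the libraries in which C3 was highest within its gate. Cfb and C2 were also highest among non-tuft libraries in library 5, at 5.25 and 5.80. Among tuft libraries both were highest in library 4, at 6.09 and 6.55. With both libraries numbered 5 left out, an alternative chosen after these values were seen, the differences were -5.88 for C3, -4.03 for Cfi, 3.92 for Cfb, -6.25 for Lcn2 and -3.06 for Lbp, and all 6 genes were still called, whereas Cfp (limma adjusted p = 0.0739), Cpn1, Il1rn and Il1rap were not. The part of acinar or connective tissue RNA in these differences was not tested beyond this.

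**Figure D5:**
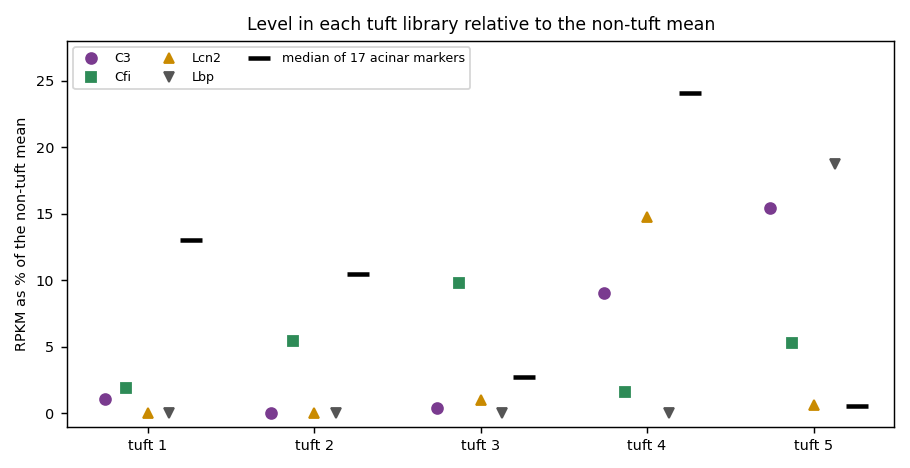
Level of C3, Cfi, Lcn2 and Lbp in each of 5 tuft libraries as a percent of the mean of the 5 non-tuft libraries (linear RPKM), with the median of 17 acinar markers as a bar. C3 reaches 15.4 percent and Lbp 18.7 percent in tuft library 5, where the acinar median is lowest at 0.553 percent.

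Of the sorted antigens, Siglec f and EpCAM followed their labels at the RNA level, whereas Ptprc (Cd45) was above the floor in all 5 libraries of the Cd45-neg tuft gate, as given above. Siglecf was at 5.62 to 7.52 in tuft libraries and at 0 in non-tuft libraries except library 2, at 1.61. Epcam was above 7.4 in all 10 libraries, but higher in tuft (9.19 to 10.87) than in non-tuft libraries (7.44 to 9.08), without overlap. Krt8 and Krt18 were the 2 of 14 ductal and metaplastic markers called higher in tuft cells, and Spp1 and Tff2 were called lower. The called share is 28.6%, beside 8.31% of all listed genes. Of 8 islet markers, 4 were called lower; their sum ran from 0.484 to 38.3 RPKM in tuft and from 2.71 to 20850 RPKM in non-tuft libraries, with the highest in non-tuft library 1. Ltf, the only listed neutrophil marker, was low, at 1.32 to 2.73 in tuft and at most 0.17 in non-tuft libraries. None of the eosinophil markers was listed.

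Finally, the genes most like each of the 6 were found by the root mean square difference of their values over the 10 libraries, after each gene's own mean was subtracted. For Fcna these were Folr1 (0.43 on the log2 scale), Smpx (0.62) and Ms4a8a (0.62). Folr1, a folate receptor, was at 7.04 to 8.23 in all tuft libraries and at the floor wherever Fcna was. For Cfb they were Ptpn18 (0.76), Inpp5b (0.78) and Slc26a2 (0.80), and for Lbp they were Rab34 (0.24), Rhoj (0.40) and Ang (0.45). Bhlha15, the acinar maturation factor Mist1, was close to Cfi (0.63), beside Ccnb2 (0.56) and Mfge8 (0.63). C3 and Lcn2 shared ceruloplasmin Cp (1.31 and 1.17) and the interferon-induced gene Ifitm3 (1.37 and 1.27) among their closest genes, with Sparc (1.34) for C3 and Cabp2 (1.29) for Lcn2. C3 and Lcn2 were also the 2 genes that varied most among tuft libraries, with an SD of 2.68 and 2.23. Among the 6 genes themselves, Cfi and Lbp were the closest pair (1.29), followed by C3 and Lcn2 (1.72).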

How the data were processed

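The deposited table holds log2(RPKM + 1) values for 10 Smart-Seq2 libraries. The authors aligned single-end reads of 50 bp to the mm9 genome (Hisat2), quantified genes with Stringtie and Ballgown, removed genes with an RPKM variance under 1 and quantile normalized the log2 values with preprocessCore. Variance filtering drops stable and silent genes, and normalization fixes each library's distribution. The authors' fold change, p-value and false discovery rate columns were not used. Counts were not used here, so depth is unknown and no counting interval is given. Groups came from the sample titles. All genes were fitted with lmFit and eBayes (limma 3.58.1, R 4.3.3) without covariates; p-values were Benjamini-Hochberg adjusted over 12160 genes. Single values were tested by two-sided exact permutation over the 252 splits of 10 libraries (scipy 1.17.1). The fit was tested on simulated data. Positions are from the GENCODE M1 annotation of mm9. The genes named are the 6, every listed complement gene (1 that the rule selects is not reported here), called genes of the acute-phase and iron lists with 14 fixed additions, and the 3 closest genes to each. The 6 genes and all lists were chosen with earlier results of these data known. Alternatives were the constant added, a mean of at least 2, the floor, scaling, moderation, thresholds, a replicate block and leaving out libraries.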

Additional observations from a re-analysis of the deposited data

Results flagged for a closer look

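Of the 18 groups of 5 libraries examined for a library far from the rest, 3 exceeded Dixon's critical value of 0.71, which chance does in about 1 of 20 groups. C3 was highest at 10.36 in non-tuft library 5, where the gap to the next library was 0.727 of the range. Lbp in tuft cells was highest at 1.27 in tuft library 5, with the other tuft libraries at the floor. Any value above such a tie is flagged, so that chance rate does not apply to Lbp here, nor to Fcna below. Fcna in non-tuft cells was highest at 0.169 in non-tuft library 2, which is the floor of that library and not a measured level.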

How the results depend on the processing

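No called gene or tested difference changed direction under the alternatives run. For Fcna, C3, Cfi and Lcn2 the call held under each of them, but the size moved with the constant added. With 0.1 added in place of 1, the difference was 10.6 for Fcna, -6.30 for C3, -4.34 for Cfi and -7.67 for Lcn2. With 10 added it was 4.2, -4.16, -2.50 and -4.05 in the same order. For Cfb the difference was 4.33 with 0.1 added in place of 1 (limma adjusted p = 0.0842), 1.68 with 10 added (0.0377, under the fold), and 3.28 at an adjusted p under 0.01, none of them called; leaving out libraries gave 2.76 to 4.07. For Lbp it was -0.73 with 10 added and -1.86 with libraries centered on 80 ribosomal protein genes, both under the fold, and -3.06 to -2.40 with libraries left out; Lbp has a mean under 2 and so no value with that filter. The ranges with libraries left out were -6.27 to -4.67 for C3, -4.33 to -3.64 for Cfi, 7.15 to 7.71 for Fcna and -7.07 to -5.70 for Lcn2.

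The 1010 genes called became 278 with 10 added, and 806 to 1010 with libraries left out. Centering on ribosomal protein genes moved the median difference of all genes from 0.02 to 0.82 and the split from 525 higher and 485 lower to 1289 higher and 225 lower. In that scaling 5 of the 6 genes, and 5 complement genes as higher and 3 as lower, were called. The 8 complement genes called became 4 with 10 added and 4 at an adjusted p under 0.01, and 6 to 9 with libraries left out. The 8 positive acute-phase genes became 5 with 10 added, 5 with a mean of at least 2 and 5 with ribosomal centering, and 6 to 8 with libraries left out. In each case the cause was not tested.

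Cfb minus C3 gave 8.24 to 9.80, Cfi minus C3 gave 0.63 to 2.34 and Lcn2 minus Lbp gave -4.47 to -3.11 with libraries left out. Lcn2 minus Lbp was -2.43 with 0.1 added (exact permutation p = 0.127) and -3.20 without both libraries numbered 5 (0.143). The sources do not say that a replicate number marks a mouse. Same-numbered libraries correlated at 0.124, 0.0792, 0.115, 0.0619 and 0.241 in their deviations from the group means, all weak and positive. Tuft libraries 2, 4 and 5 were closest to their own number. Tuft library 1 was slightly closer to non-tuft library 2 (0.1243 against 0.1236), and tuft library 3 was closer to non-tuft library 5 (0.139). Whether the numbers mark mice was not tested. With the replicate block 1009 genes were called and no call of the 6 changed; within pairs, Cfb minus C3 remained 8.78 (exact p = 0.0625, the smallest 5 pairs allow) and Lcn2 minus Lbp -3.49 (0.125).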

Other observations

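Some values belong to no comparison above. Steap4, a metalloreductase of the acute-phase list, was at 5.33 and 6.40 in non-tuft libraries 3 and 5 and at the floor in the other 8 libraries. Serpina3g was found only in the libraries numbered 5, at 2.49 in tuft and 2.58 in non-tuft, and Serpina3n reached its highest levels there too, at 2.16 and 4.82.

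Il22ra1, the receptor chain through which interleukin 22 acts on epithelium, was at 0 in all tuft libraries and at 0.41 to 2.90 in non-tuft libraries, past the adjusted p (limma, 0.0356) but not the fold of 4. Ltf, encoding the iron-binding protein lactoferrin, was the reverse, at 1.32, 1.74, 2.73, 1.67 and 2.32 in tuft libraries 1 to 5 and at most 0.17 in non-tuft libraries (1.92, limma adjusted p = 0.00480). Tirap, an adaptor of Tlr4 signaling, was at 1.54 to 2.12 in tuft and 0 to 1.21 in non-tuft libraries, also past the adjusted p (limma, 0.0394) and under the fold. These genes were chosen after their values were seen.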
